A study of Mus musculus with 6 samples.

Results

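The cathepsins are the proteases that degrade proteins in lysosomes and endosomes. The gene group studied here holds the 10 genes Ctsb, Ctsc, Ctsd, Ctse, Ctsh, Ctsk, Ctsl, Ctss, Ctsw and Ctsz. They were taken by gene name, with earlier results of these data known. The array carried 18 probes for these genes among 56605 probes, and 16 of the 18 exceeded the background clearly on 3 or more of the 6 arrays and were tested, out of 39924 tested probes. All 10 genes had a tested probe, out of 25805 gene symbols with one. The transcriptome analysis (TA) compared kidneys of 3 female MRL mice (strain MRL/MpJ) with kidneys of 3 female LPR mice (strain MRL/MpJ-Fas lpr/lpr) at 6 months of age. Both strains have the MRL background, and LPR mice carry in addition the lpr mutation of the death receptor gene Fas in all cells, so that no single organ or cell type is targeted. MRL mice are the control strain, but they too are prone to a milder autoimmune disease with age. Each array held the kidney RNA of 1 mouse, labelled with a single dye.

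Most cathepsins are cysteine proteases, whereas cathepsins D and E are aspartic proteases. They are made as inactive precursors and become active in the acid lumen of endosomes and lysosomes. Some members are found in nearly every cell, where they serve protein turnover, and in the proximal tubule of the kidney they digest proteins taken up from the filtrate. Others are largely restricted to leukocytes or osteoclasts, where they cut the invariant chain of major histocompatibility complex (MHC) class II, activate the proteases of cytotoxic granules or dissolve bone collagen.

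In the kidney of LPR mice, 5 of the 10 cathepsin genes were higher than in MRL mice and 0 were lower, at an adjusted p under 0.05 in limma. At an unadjusted p under 0.05 in limma the counts were also 5 and 0. The 5 were Ctss, Ctse, Ctsc, Ctsw and Ctsk, and their rises ran from 1.63-fold to 11.5-fold. Ctsz, Ctsl, Ctsb, Ctsd and Ctsh did not pass the threshold, and their fitted changes lay between -0.15 and 0.19 on the log2 scale. Among the 25805 genes with a tested probe, 7.12% were called higher and 5.39% lower by the same rule. Counted by probe, 8 of the 16 tested cathepsin probes were called higher and 0 lower, against 6.54% and 6.07% of all tested probes. The median log2 change was 0.45 over the 10 cathepsin genes and -0.12 over all genes with a tested probe. In bulk kidney RNA, more cells of a type and more RNA per cell cannot be told apart, which holds for every change given here.

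**Figure D1:**
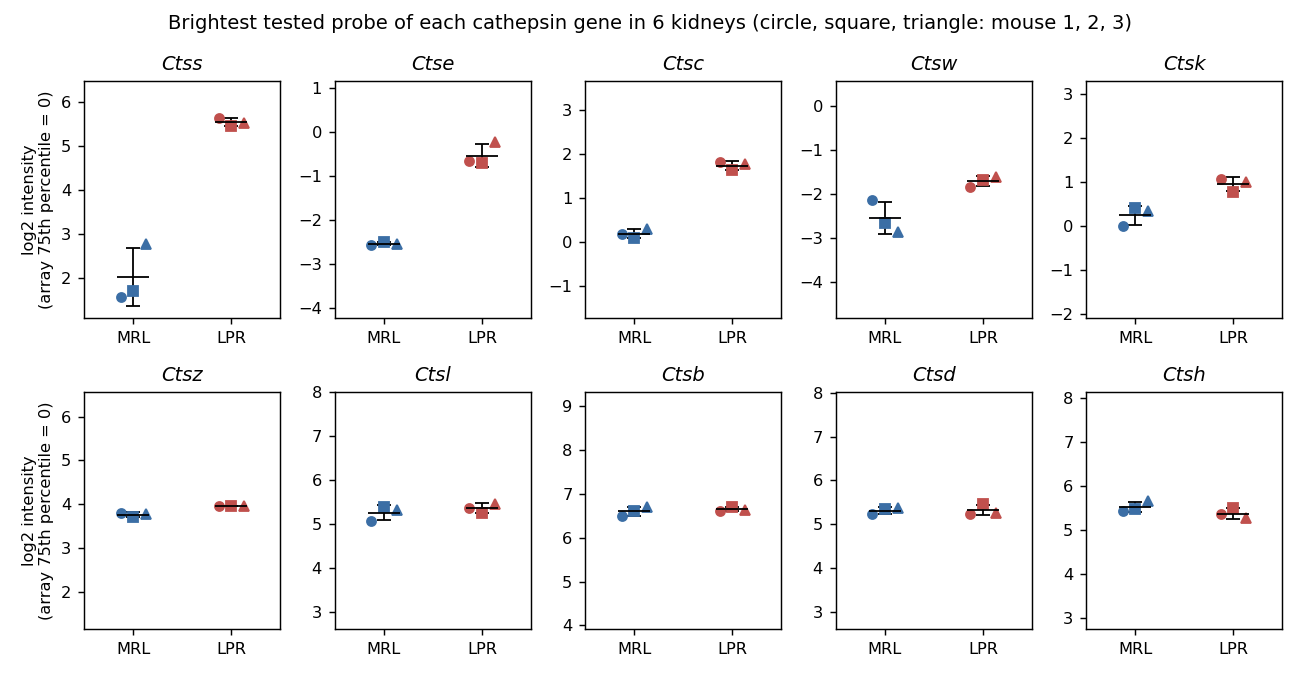
Log2 intensity of the brightest tested probe of each cathepsin gene in the kidneys of 3 MRL mice (blue) and 3 LPR mice (red), with the 75th percentile of each array set to 0. Circle, square and triangle are mouse 1, 2 and 3, the horizontal bar is the mean and the error bar the SD, and all panels span the same number of log2 units. The genes are ordered by their change, from Ctss with a difference of 3.53 to Ctsh with -0.15, and the LPR mice lie above all MRL mice in the upper row and for Ctsz.

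All levels below are log2 intensities relative to the 75th percentile of their own array, so 0 is the level of a probe at that percentile. The level of one probe cannot be compared with that of another, since probes differ in brightness. A log2 change is LPR minus MRL, with its standard error (SE). The median change of all tested probes was -0.13, so a change of 0 lies slightly above the middle of the array. The adjusted p comes from limma, adjusted by Benjamini-Hochberg across the whole set of 39924 tested probes. With 3 mice a group, an exact permutation test has a smallest p of 0.1, so none was run for single genes. Each value is one mouse, and the number of arrays limits the precision. Between 69.6% and 73.5% of the spots on an array were well above background, and 0 were saturated. Over all tested probes, arrays correlated at 0.990 to 0.993 within a group and at 0.961 to 0.971 between groups. By this measure no mouse stood apart. LPR 1 had the highest 75th percentile of intensity before the shift, 930 against 700 to 751 on the other arrays, and the most spots above background. Fas itself was measured by a pair of probes whose changes differed in sign. The brighter did not pass (-0.47, adjusted p = 0.235), and A_52_P73385, above background in 0 of 3 MRL mice, was called higher in the LPR group, by at least 1.47-fold (adjusted p = 0.0337).

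Ctss encodes cathepsin S, a cysteine protease of antigen-presenting cells that trims the invariant chain before peptides are loaded on MHC class II. Its probe A_51_P423981 lies on chromosome 3 from 95360162 to 95360221 in the mouse build mm9. Ctss was at 1.56 in MRL 1, 1.71 in MRL 2 and 2.77 in MRL 3, and at 5.64 in LPR 1, 5.46 in LPR 2 and 5.52 in LPR 3. The 3 LPR mice lay close together, whereas MRL 3 stood 1.06 above the next MRL mouse. Even so, the lowest LPR mouse exceeded the highest MRL mouse by 2.69. The change of 3.53 (SE 0.31) equals 11.5-fold (95% interval 6.96 to 19.1, adjusted p = 0.00054). Without MRL 3 the change was 3.91. Ranked by log2 change among the 23317 genes above background on all 6 arrays, Ctss came at place 174, and 99.3% of these genes had a smaller change.

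The promoter of Ctss is shown because it holds a sequence known from interferon-responsive genes, and Ctss had the largest change of the group. It is taken from the RefSeq table of build GRCm38.p6, at chr3:95526536-95526835 on the forward strand, from 250 bases before the annotated start to 50 bases after it. The capitals mark 2 copies of the letters GAAA with 2 bases between them, a core of the interferon-stimulated response element.
Ctss promoter: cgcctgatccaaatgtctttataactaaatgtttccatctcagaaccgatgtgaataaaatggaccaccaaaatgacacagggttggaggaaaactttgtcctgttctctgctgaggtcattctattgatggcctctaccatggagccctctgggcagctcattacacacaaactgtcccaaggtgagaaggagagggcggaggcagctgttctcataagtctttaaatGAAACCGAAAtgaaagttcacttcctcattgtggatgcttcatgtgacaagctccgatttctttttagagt
The match ends 11 bases before the start. Searched on both strands, this core was found in 3.44% of the 32851 promoters of the table and in 1 of the 6 cathepsin promoters in it, that of Ctss. The table held 1 promoter each for Ctsc, Ctsd, Ctsk, Ctsl, Ctss and Ctsz. The letters AGGAAGT, a core bound by Ets factors such as PU.1, occurred in 9.35% of all promoters and in those of Ctss and Ctsc. TTCNNNGAA, the core bound by STAT factors, occurred in 8.30% and among the cathepsins in that of Ctsc. TATAAA, the letters of the TATA box, occurred in 13.6% and among the cathepsins in that of Ctss, on the opposite strand and 227 bases before the start. A match describes the letters of the window, and no binding was measured here.

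Ctse encodes cathepsin E, an aspartic protease of endosomes in antigen-presenting cells and in the epithelium of the stomach. Its probe A_55_P2714921 lies on chromosome 1 from 133571990 to 133572049 in mm9. Ctse was at -2.57, -2.51 and -2.56 in MRL 1, 2 and 3, and at -0.67, -0.72 and -0.23 in LPR 1, 2 and 3. The MRL mice were nearly identical, with a range of 0.06, and LPR 3 was the highest of all 6 mice. The change of 2.01 (SE 0.15) equals 4.02-fold (95% interval 3.14 to 5.14, adjusted p = 0.000265). Cathepsin D, the other aspartic member, did not pass the threshold.

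Ctsc encodes cathepsin C, also named dipeptidyl peptidase I, which removes dipeptides from the precursors of granzymes and other granule proteases and so activates them. Its 3 probes on chromosome 7 share the gene, and are no replicates of each other. The brightest, A_52_P195839 at 95458436 to 95458495, was at 0.19, 0.10 and 0.31 in MRL 1, 2 and 3, and at 1.82, 1.63 and 1.77 in LPR 1, 2 and 3. Each group kept within a narrow range, of 0.21 in MRL mice and 0.19 in LPR mice. The change of 1.55 (SE 0.11) equals 2.92-fold (95% interval 2.43 to 3.50, adjusted p = 0.000222).

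The 2 other Ctsc probes are annotated to another transcript variant than the brightest one and were dimmer. A_65_P05835, at 95439346 to 95439405, was at -4.00, -4.76 and -4.49 in the MRL mice and at -2.47, -2.47 and -2.05 in the LPR mice, a change of 2.09 (SE 0.22, adjusted p = 0.00131). A_55_P2072005, at 95435428 to 95435487, exceeded background in 1 of 3 MRL mice and in 3 of 3 LPR mice. It was at -5.92, -5.39 and -5.72 in MRL mice and at -3.63, -4.27 and -3.76 in LPR mice, a change of 1.79 (SE 0.21, adjusted p = 0.00225). With normexp background correction the changes of these dimmer probes were 1.12 and 0.48, and that of the brightest probe was 1.47. All 3 Ctsc probes were thus higher in LPR mice. Without normexp, the log2 changes of the dimmer probes exceeded that of the brightest by 0.55 (SE 0.25) and 0.24 (SE 0.24). Within the arrays these differences overlapped between the groups. With normexp the dimmer probes changed less than the brightest.

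Ctsw encodes cathepsin W, a member found mainly in cytotoxic T cells and natural killer cells. It was measured by 2 probes on chromosome 19, which are shown because they gave different changes.
A_66_P103526: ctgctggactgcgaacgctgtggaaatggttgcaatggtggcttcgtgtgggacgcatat
A_55_P2021981: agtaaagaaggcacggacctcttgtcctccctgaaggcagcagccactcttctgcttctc
Both oligos have 60 bases and 55.0% of G and C. They are placed on the same transcript, the first from its base 558 and the second from its base 1106, at 5466250 to 5466309 and at 5465315 to 5465374 in mm9. A_66_P103526 was at -2.13, -2.64 and -2.85 in MRL 1, 2 and 3, and at -1.82, -1.67 and -1.60 in LPR 1, 2 and 3. A_55_P2021981 was at -3.31, -3.76 and -3.85 in the MRL mice, and at -1.27, -1.28 and -1.16 in the LPR mice. On both probes the LPR mice were higher than every MRL mouse, and MRL 1 was the highest MRL mouse.

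The first Ctsw probe, which is the brightest over all 6 arrays, changed by 0.84 (SE 0.19), or 1.79-fold (95% interval 1.31 to 2.46, adjusted p = 0.0346). The second changed by 2.40 (SE 0.16), or 5.28-fold (95% interval 4.07 to 6.85, adjusted p = 0.000153). Within the arrays the 2 changes differed by 1.56 (SE 0.07), and the groups did not overlap in this difference. The mean of both probes changed by 1.62 (adjusted p = 0.00148). The rise on the second probe passed under all 20 alternatives run for it, but was 1.54 with normexp background correction, where the first probe was at 0.58 and the gap between them 0.97. The call on the first was lost without MRL 2 (0.79, adjusted p = 0.106), MRL 3 (0.69, adjusted p = 0.0905), LPR 1 (0.90, adjusted p = 0.0677), LPR 2 (0.83, adjusted p = 0.0782) or LPR 3 (0.79, adjusted p = 0.103). In the RefSeq gene list, Fibp is the neighbour of Ctsw on the side of the second probe. The nearest Fibp probe, named after its value was seen, lies 311 bases away and changed by 0.06 (adjusted p = 0.808).

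Ctsk encodes cathepsin K, the collagen-degrading cysteine protease of osteoclasts, also made by some fibroblasts and macrophages. Its probe A_55_P1961335 lies on chromosome 3 from 95313165 to 95313224 in mm9, 46.9 kb from the Ctss probe, and in the RefSeq list the predicted gene Gm40096 alone stands between Ctsk and Ctss. Ctsk was at -0.00, 0.41 and 0.34 in MRL 1, 2 and 3, and at 1.07, 0.78 and 1.01 in LPR 1, 2 and 3. MRL 1 was the lowest mouse and LPR 2 the lowest of the LPR mice, and the groups were 0.37 apart. The change of 0.71 (SE 0.15) equals 1.63-fold (95% interval 1.28 to 2.09, adjusted p = 0.0266). The call was lost without MRL 1 (0.58, adjusted p = 0.0666), MRL 3 (0.75, adjusted p = 0.0624), LPR 1 (0.65, adjusted p = 0.0738) or LPR 3 (0.68, adjusted p = 0.0851). The change of its neighbour Ctss passed without any single mouse, from 3.30 to 3.91.

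The remaining 5 members are mostly those of general protein turnover. Ctsz encodes cathepsin Z, also named cathepsin X, a carboxypeptidase found in monocytes and macrophages among other cells. Its probe A_51_P256202 on chromosome 2, at 174253228 to 174253287, was at 3.81, 3.71 and 3.78 in the MRL mice and at 3.96, 3.97 and 3.95 in the LPR mice. The LPR mice lay above all MRL mice by a gap of 0.14, and differed among themselves by 0.02. The change of 0.19 (SE 0.09, 95% interval -0.03 to 0.42) did not pass the threshold (adjusted p = 0.216). It passed by the methods' t-test on the same log2 values (adjusted p = 0.046), which was run as an alternative. Counting the Ctsz probe, 9 of the 16 tested cathepsin probes had every LPR mouse above every MRL mouse, against 11.1% of all tested probes.

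Ctsl encodes cathepsin L, an endopeptidase that turns over lysosomal proteins in most cells and trims the invariant chain in the thymic epithelium. Its probe A_51_P253547 on chromosome 13, at 64465287 to 64465346, was printed in 10 spots per array, which were averaged. It was at 5.07, 5.40 and 5.32 in the MRL mice and at 5.37, 5.26 and 5.47 in the LPR mice. The groups overlapped, and the change was 0.11 (SE 0.13, 95% interval -0.20 to 0.41, adjusted p = 0.605). The other Ctsl probe, A_66_P130532 at 64463434 to 64463493, was well above background on 0 of 6 arrays and was not tested.

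Ctsb encodes cathepsin B, an abundant protease that cuts within proteins and also removes dipeptides from their ends. Its probe A_55_P2910387 on chromosome 14, at 63761826 to 63761885, was at 6.50, 6.60 and 6.70 in the MRL mice and at 6.61, 6.69 and 6.63 in the LPR mice. All LPR values lay inside the MRL range, with a change of 0.04 (SE 0.10, 95% interval -0.20 to 0.29, adjusted p = 0.798). Ctsd encodes cathepsin D, the main aspartic protease of lysosomes. Its probe A_51_P384629 on chromosome 7, at 149561962 to 149562021, was at 5.23, 5.35 and 5.37 in the MRL mice and at 5.24, 5.47 and 5.27 in the LPR mice. LPR 2 was the highest of the 6 mice and the other LPR mice lay among the MRL mice, with a change of 0.01 (SE 0.11, 95% interval -0.25 to 0.27, adjusted p = 0.961).

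Ctsh encodes cathepsin H, an aminopeptidase abundant in kidney and lung. It had the most probes of the group, 5 on chromosome 9, of which 4 were tested. The brightest, A_52_P51078 at 89970828 to 89970887, was at 5.44, 5.47 and 5.66 in the MRL mice and at 5.36, 5.50 and 5.27 in the LPR mice. MRL 3 was the highest and LPR 3 the lowest, and the groups overlapped, with a change of -0.15 (SE 0.12, 95% interval -0.42 to 0.13, adjusted p = 0.431). The next probes, A_66_P124326 and A_51_P277792, changed by 0.03 (adjusted p = 0.890) and -0.07 (adjusted p = 0.731). A_55_P2720038, on a separate Ensembl transcript, ranged from -1.82 to -1.60 in MRL mice and from -1.84 to -1.51 in LPR mice, with a change of 0.00 (adjusted p = 0.997). A_55_P2720043 was well above background on 0 of 6 arrays. Among the tested probes of Ctsb, Ctsd, Ctsh, Ctsl and Ctsz, the 95% intervals reached no further than -0.42 and 0.42 on the log2 scale.

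The Ctsd promoter is shown beside that of Ctss because it carries the letters bound by TFEB, the factor that switches on genes of lysosome formation, and Ctsd did not pass the threshold. It is taken from the same table at chr7:142387778-142388077 on the reverse strand, and the capitals mark TCACGTGA.
Ctsd promoter: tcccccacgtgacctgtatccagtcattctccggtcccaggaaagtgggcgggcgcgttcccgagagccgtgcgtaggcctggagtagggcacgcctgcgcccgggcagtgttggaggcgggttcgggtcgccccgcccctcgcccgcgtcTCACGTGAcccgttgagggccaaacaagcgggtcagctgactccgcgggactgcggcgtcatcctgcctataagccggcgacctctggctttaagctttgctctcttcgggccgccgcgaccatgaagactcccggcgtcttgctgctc
The match ends 91 bases before the start. TCACGTGA was found in 0.974% of all promoters and among the cathepsins in that of Ctsd alone. Its inner letters CACGTG, which overlap it, were found in 7.15% and also in the promoter of Ctsl. The Ctsd window held 33 CpG dinucleotides and the Ctss window 5, and the Ctsk window 2, while Ctsc and Ctsz held 12 each and Ctsl 10. The median over all promoters was 7. The windows of Ctss and Ctsk, 2 of the 3 genes with a promoter that were higher in LPR mice, lay below this median, and that of Ctsc above it. The table held no promoter for Ctse and Ctsw, and a link of CpG count to the change was not tested.

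**Figure D2:**
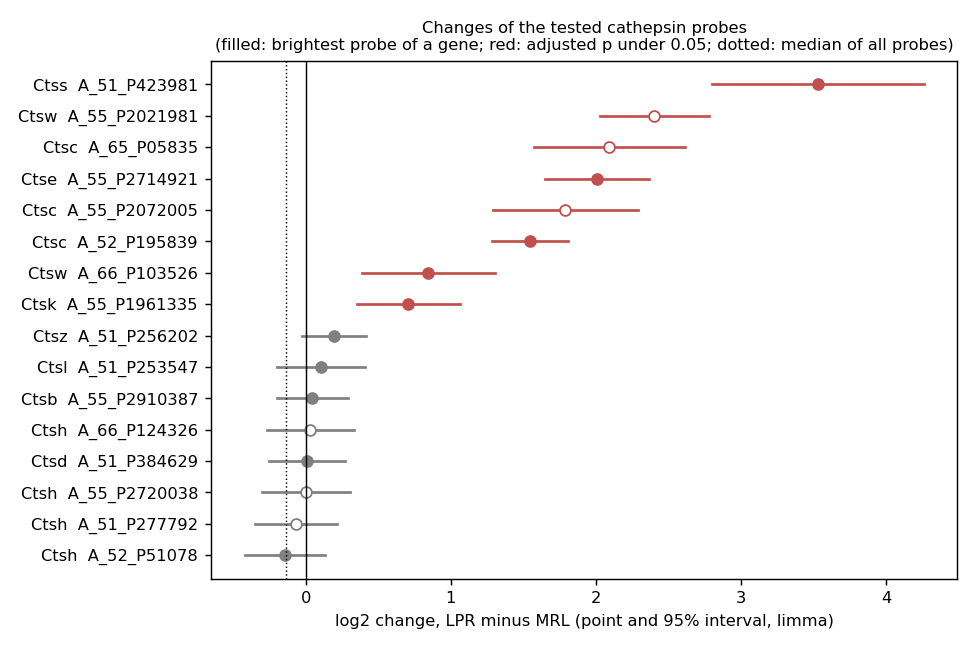
Log2 change, LPR minus MRL, of each of the 16 tested cathepsin probes, with its 95% interval from limma (3 mice per group). Filled points are the brightest probe of a gene, red marks an adjusted p under 0.05, the solid line is 0 and the dotted line the median change of all tested probes, -0.13. The 8 red probes lie between 0.71 and 3.53, and the 2 Ctsw probes lie far apart at 0.84 and 2.40.

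Ordered by the change of the brightest probe, the genes ran Ctss, Ctse, Ctsc, Ctsw, Ctsk, Ctsz, Ctsl, Ctsb, Ctsd and Ctsh. The log2 changes of Ctss and Ctse differed by 1.52 (SE 0.42), those of Ctse and Ctsc by 0.46 (SE 0.17) and those of Ctsc and Ctsw by 0.70 (SE 0.26). In each of these pairs the within-array difference was larger in every LPR mouse than in every MRL mouse. Ctsw and Ctsk differed by 0.14 (SE 0.36) and overlapped. Ctsk and Ctsz differed by 0.51 (SE 0.18) without overlap. The neighbours from Ctsz to Ctsd overlapped pairwise, and Ctsd and Ctsh differed by 0.16 (SE 0.06) without overlap. This order rests on the brightest probes. The other Ctsw probe, at 2.40, and the Ctsc probe A_65_P05835, at 2.09, changed more than Ctse did. With normexp background correction Ctse was at 1.59 and the brightest Ctsc probe at 1.47. The other tested Ctsh probes changed by 0.03, -0.07 and 0.00, beside 0.01 for Ctsd.

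The slide held the arrays in a grid, with MRL 1 to 3 and LPR 1 in row 1 and LPR 2 and 3 in row 2. Against the MRL mice of the same row, LPR 1 differed by 3.63 for Ctss, 1.87 for Ctse, 1.63 for Ctsc, 0.72 for the brightest Ctsw probe, 0.83 for Ctsk and 0.20 for Ctsz, all in the direction of the full comparison. Row 2 held LPR mice only and gave no comparison. With the row in the fit, Ctss (adjusted p = 0.015), Ctse and Ctsc passed, and Ctsw (adjusted p = 0.220) and Ctsk (adjusted p = 0.105) did not.

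Cathepsin S acts together with the other parts of the MHC class II pathway. Of the 11 genes of this list, 10 were higher in LPR mice and 0 were lower, with a median log2 change of 3.45. H2-DMb2 was above background in 0 MRL mice and in 3 LPR mice, and so entered the test through the LPR mice alone. With a filter on all 6 arrays, 9 genes were higher. Cd74, the invariant chain itself, was at 2.74, 2.73 and 2.74 in the MRL mice and at 6.47, 6.37 and 6.51 in the LPR mice. This rise equals 13.1-fold (adjusted p = 7.7e-06). H2-Ab1, a chain of the MHC class II molecule, was 11.7-fold higher, H2-DMb1, a chain of the peptide exchanger, 11.2-fold, while Ciita, the master regulator of the pathway, changed by 3.46 on the log2 scale. The Ctss change of 11.5-fold, or 3.53 on the log2 scale, lay among these, but unlike Cd74 the Ctss level was spread among the MRL mice. The exception was Ifi30, a thiol reductase of the lysosome, at 0.37 (adjusted p = 0.0862).

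Of the 12 macrophage markers, 11 were higher in LPR mice and 0 were lower, and 12 of 12 were above background in both groups. Their summed intensity, in units of the 75th percentile of each array, was 37.9 to 46.6 in MRL mice and 157 to 171 in LPR mice. Fcgr1, a macrophage Fc receptor, was 18.8-fold higher, or 5.33-fold with normexp background correction, and the complement genes C1qa, C1qb and C1qc were 10.8-fold, 10.1-fold and 10.8-fold higher. Itgam, at -0.08, was the marker that did not pass. MRL 3, the MRL mouse with the highest Ctss, was also the highest MRL mouse for 9 of the 12 macrophage markers, and for 34.8% of all genes. It was the highest for 1 of the 11 MHC class II genes, 2 of the 5 dendritic cell markers, 2 of the 5 cytotoxic cell markers and 0 of the 7 T cell markers. Dendritic cell markers were higher for 4 of 5 genes, with a summed intensity of 0.41 to 0.48 in MRL mice and 2.82 to 3.38 in LPR mice. Of the 5, 1 was above background in no MRL mouse and entered the test through the LPR mice alone. Flt3 was called higher on its brightest probe (1.46) but lower on A_66_P126155 (-0.69, adjusted p = 0.0497). The mean of its probes did not pass (0.38, adjusted p = 0.0724). The part of macrophages and dendritic cells in the levels of Ctss and Ctse was not tested.

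**Figure D3:**
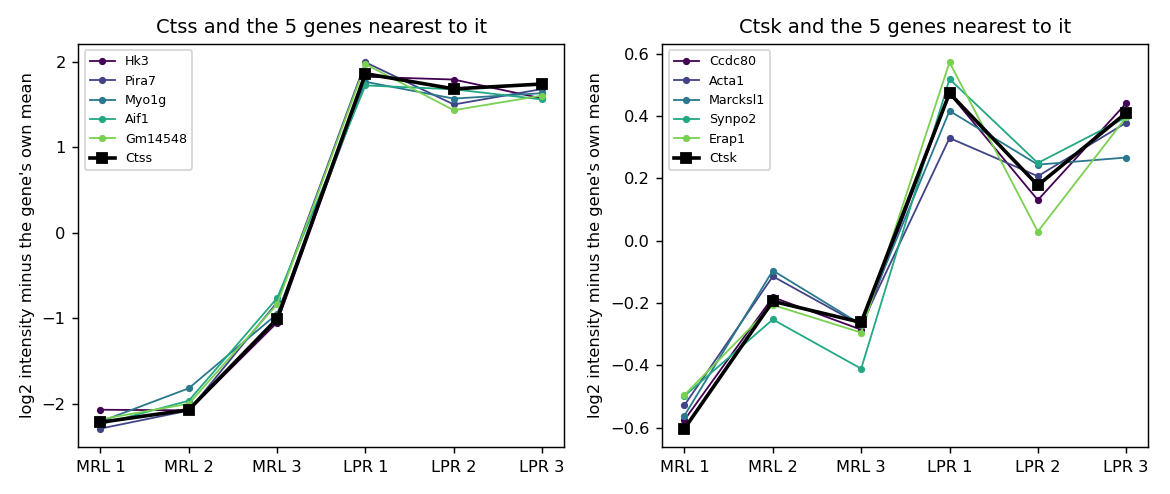
Log2 intensity minus the mean of each gene over 6 mice, for Ctss (left, black) and Ctsk (right, black) and for the 5 genes whose values over the 6 mice were nearest to each. The lines only join the values of one gene. In the left panel MRL 3 lies above MRL 1 and MRL 2 for all 6 genes, and in the right panel MRL 1 is the lowest mouse and LPR 2 the lowest LPR mouse for all 6 genes.

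The genes whose pattern over the 6 mice was nearest to that of Ctss, out of 23316, were Hk3, Pira7, Myo1g, Aif1 and Gm14548. The measure was the root mean square difference of the centred log2 values, which ran from 0.10 for Hk3 to 0.15 for Gm14548. Aif1 is one of the macrophage markers, and it was at -0.91, -0.63 and 0.57 in MRL 1, 2 and 3, so MRL 3 stood apart as it did for Ctss. The genes nearest to Ctsk were Ccdc80 (0.03), Acta1, Marcksl1, Synpo2 and Erap1 (0.09). For Ctsh, the member with the most negative change, they were an unnamed Ensembl transcript, AU040320, Arpin, Wdr55 and Rrs1, all within 0.03. Likeness over 6 mice is a description, and the measure favours genes with a change of the same size.

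**Figure D4:**
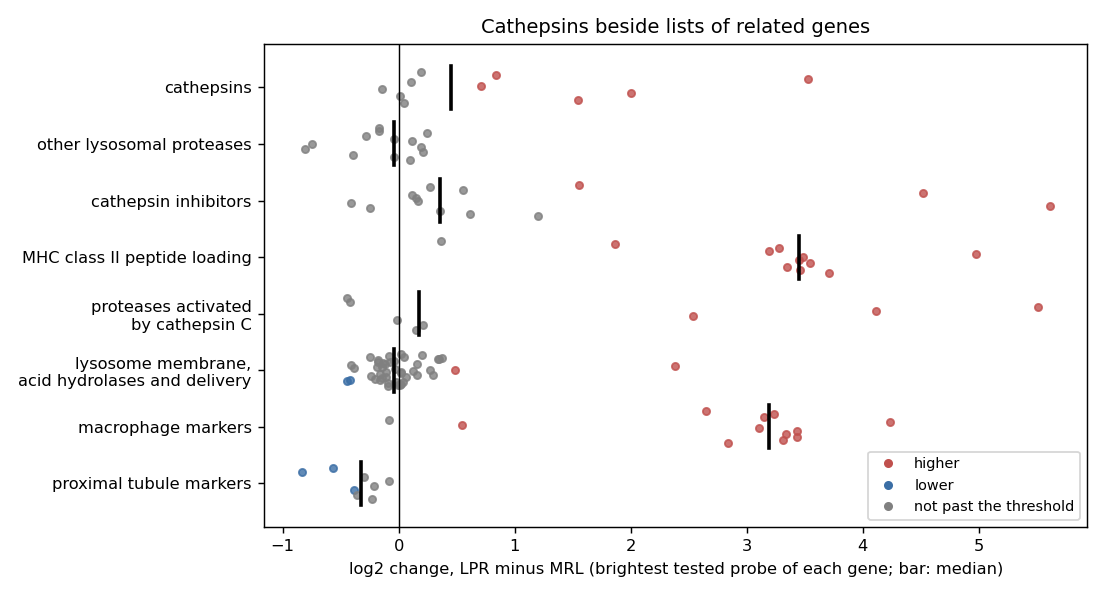
Log2 change, LPR minus MRL, of the brightest tested probe of each gene in the cathepsin group, in 5 lists of related genes and in 2 lists of cell markers. Each point is a gene, red and blue mark an adjusted p under 0.05 in limma, and the black bar is the median of a list. The cathepsins are split between changes near 0 and rises up to 3.53, while the lysosomal lists lie around 0 and MHC class II loading has a median of 3.45.

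Cathepsin C activates granule proteases, and of 8 tested genes of such proteases 3 were higher in LPR mice and 0 were lower, with a median log2 change of 0.18. Gzma, which encodes granzyme A, was at -2.40, -1.35 and -1.95 in the MRL mice and at 0.89, 0.38 and 0.64 in the LPR mice. This equals 5.81-fold (adjusted p = 0.00145). Gzmb and Gzmk, which encode granzymes B and K, were well above background in 0 of 3 MRL mice and 3 of 3 LPR mice, and were at least 11.8-fold (adjusted p = 7.86e-06) and at least 32.1-fold higher (adjusted p = 3.92e-05). These bounds raise each MRL array to the lowest signal well above its background. Both genes entered the test through the LPR mice alone and their p-values rest on MRL signals at background, so the count of 3 is no support for a change of the list. With a filter on all 6 arrays, 1 gene, Gzma, was higher. The proteases of neutrophils and mast cells in the list did not pass, and at an unadjusted p under 0.05 Tpsb2 was lower. Elane was at -0.02, Ctsg at 0.21, Mcpt4 at -0.42, Cma1 at 0.15 and Tpsb2 at -0.44.

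Most tested markers of the cells in which cathepsin W is found were also higher in LPR mice. Of 5 tested markers of natural killer and cytotoxic cells 4 were higher, with Nkg7 at 21.5-fold (13.8-fold with normexp), Klrk1 at 5.86-fold (2.27-fold with normexp) and Prf1, which encodes perforin, at 1.42-fold. The dimmer Klrk1 probe A_51_P189451, above background in LPR mice alone, was higher by at least 1.41-fold (adjusted p = 0.0107). The mean of the Klrk1 probes was 3.21-fold higher. The Prf1 call was lost without MRL 1, MRL 2, MRL 3 or LPR 3, at 0.47 to 0.54 on the log2 scale. Their summed intensity was 0.33 to 0.45 in MRL mice and 3.72 to 4.59 in LPR mice. Of 7 T cell markers 6 were higher, with a summed intensity of 2.86 to 3.29 in MRL mice and 12.8 to 14.7 in LPR mice. Of 6 B cell markers 3 were higher and 0 lower, though Ms4a1 was at -0.70 (adjusted p = 0.0504), and 1 gene of the list was called lower in 5 of 21 alternatives. The list had a summed intensity of 1.57 to 1.69 in MRL mice and 4.33 to 5.60 in LPR mice. The part of these cells in the Ctsw and Ctsc levels was not tested.

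Beside Ctsk, 2 of 6 osteoclast markers and 5 of 7 fibroblast markers were higher, and 0 were lower in either list. The count of 2 moved to 0 or 1 in 11 of 21 alternatives, 1 of them the filter on all 6 arrays, which removes Dcstamp. Dcstamp entered the test through the LPR mice alone, and its p-value rests on MRL signals at background. The count of 2 is thus no support for a change of the osteoclast markers. Nfatc1, a transcription factor of osteoclasts and lymphocytes, was 1.53-fold higher (adjusted p = 0.0427), and Dcstamp, a fusion protein of osteoclasts, exceeded background in LPR mice alone (3 of 3), a rise of at least 1.59-fold (adjusted p = 0.0159). The Nfatc1 call on this brightest probe was lost without any one mouse but LPR 1, at 0.51 to 0.67. Its dimmer probe A_51_P220135 changed by 1.13 (adjusted p = 0.00104). Acp5, a phosphatase of osteoclasts and macrophages, was at 0.45 (adjusted p = 0.081), and the calcitonin receptor gene Calcr at -0.36. Among the fibroblast genes Col1a1 was 5.19-fold higher and Col3a1 changed by 1.43 on the log2 scale. The summed intensity of the fibroblast markers was 24.5 to 26.1 in MRL mice and 47.2 to 51.6 in LPR mice. That of the osteoclast markers was 30.3 to 39.7 and 44.0 to 52.9. Such a sum is set mostly by the brightest probes. The brightest Nfatc1 probe lay between -1.21 and -0.26 on the log2 scale, and Dcstamp exceeded background in LPR mice alone. The osteoclast sum therefore reflects mostly other genes of the list than these called ones. The part of fibroblasts and osteoclasts in the Ctsk level was not tested.

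The inhibitors of cathepsins were mostly not past the threshold, with 3 of 13 tested genes higher and 0 lower and a median log2 change of 0.35. At an unadjusted p under 0.05 in limma, 7 were higher and 0 lower. Serpina3g, a serpin of leukocytes that inhibits cysteine cathepsins, was at -1.47, -1.21 and -0.61 in the MRL mice and at 3.45, 3.39 and 3.42 in the LPR mice, or 22.9-fold higher (adjusted p = 3.89e-05). Cst7, which encodes the endolysosomal inhibitor cystatin F of leukocytes, exceeded background in 3 of 3 LPR mice and in 1 of 3 MRL mice. It was at -7.59, -5.28 and -5.95 in MRL mice and at -0.75, -0.63 and -0.59 in LPR mice, with a fitted change of 5.61 (adjusted p = 0.000814). Stfa3, a stefin, was 2.94-fold higher (adjusted p = 0.00289), or 1.33-fold with normexp. Serpina3g and Stfa3 belong to clusters of similar genes, and binding of relatives to their probes was not tested. The widely expressed inhibitors Cst3 (cystatin C) and Cstb (cystatin B) were at 0.35 (adjusted p = 0.118) and 0.17 (adjusted p = 0.381).

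The counts of calls in the other lysosomal lists lay near or below the shares over all genes, 7.12% higher and 5.39% lower. Of 13 other tested lysosomal proteases, 0 were higher and 0 lower in limma, with a median log2 change of -0.04. These include legumain (Lgmn, -0.04), which processes cathepsins, and cathepsins A (Ctsa, -0.04), F (Ctsf, -0.39, adjusted p = 0.0965) and O (Ctso, 0.20). At an unadjusted p under 0.05 limma called 2 of them lower, Ctsf and Ctsr, and the methods' t-test on log2 values 3. Of 45 genes of the lysosome membrane, acid hydrolases and delivery, 2 were higher and 2 lower, and their median was also -0.04. Laptm5, a lysosomal membrane protein of blood cells, was 5.22-fold higher (adjusted p = 0.00184) and Gusb, beta-glucuronidase, 1.40-fold higher (adjusted p = 0.0205). The proton pump genes Atp6v0d2 and Atp6v1a fell by 0.45 (adjusted p = 0.0327) and 0.42 (adjusted p = 0.036) on the log2 scale. The calls of Gusb and Atp6v0d2 were lost without any one mouse but LPR 2, at 0.45 to 0.51 and at -0.47 to -0.41, and that of Atp6v1a without any one mouse, at -0.46 to -0.39.

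Of 8 markers of the proximal tubule, the segment whose lysosomes digest filtered protein, 3 were lower in LPR mice and 0 higher, and all 8 were above background on all 6 arrays, as the kidney label implies. Slc5a12 fell by 0.84 (adjusted p = 0.00861), Slc5a2 by 0.57 (adjusted p = 0.0271) and Lrp2, which encodes the uptake receptor megalin, by 0.39 (adjusted p = 0.0497). The Lrp2 call was lost without any one mouse, at -0.42 to -0.36, and that of Slc5a2 without MRL 2, MRL 3, LPR 1 or LPR 3, at -0.57 to -0.49. The dimmer Slc5a2 probe A_66_P106294 did not pass (-0.24, adjusted p = 0.278), nor did the mean of the Slc5a2 probes (-0.40, adjusted p = 0.0738). The dimmer Lrp2 probes changed by -0.67 to -0.39 and did not pass (adjusted p from 0.0539 to 0.108). The Slc5a12 call was lost with the slide row in the fit (adjusted p = 0.0809). The count of 3 lower moved in 8 of 21 alternatives, between 0 with the slide row and 5 with the methods' t-test. Their summed intensity was 629 to 675 in MRL mice and 480 to 535 in LPR mice. The part of tubule cells in the levels of Ctsb, Ctsd, Ctsh, Ctsl and Ctsz was not tested.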

How the data were processed

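Kidney RNA of 3 MRL and 3 LPR mice was hybridized to 6 single-colour Agilent arrays. Per the labels, groups follow strain, and 1 mouse gave 1 array. The RNA kit differs between the labels (RNeasy) and the paper (Trizol). The authors deposited spot intensities from Feature Extraction 12.0.3.1, background-subtracted and not normalized between arrays. The authors also deposited these intensities as a ratio to each array's 75th percentile, which served as an alternative. Probe positions are those of the files (mm9), and exon or UTR positions were not analysed here.

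Controls and outlier-flagged spots were dropped, log2 intensities were shifted by each array's 75th percentile, and spots of 1 probe were averaged. A probe well above background on 3 or more arrays was tested with limma 3.58.1 in R 4.3.3 (lmFit, eBayes), adjusted by Benjamini-Hochberg across these probes, at a threshold of 0.05. The tested probe with the highest mean stands for a gene. The number of arrays limits the precision. Steps were tested on simulated data. Promoters are from RefSeq (GRCm38.p6) and figures from matplotlib 3.10.9 in python 3.11.15.

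The members, the lists of related genes and markers, the motifs and the tests were chosen with earlier results of these data known, and the lists are no independent evidence. All members with all their probes are named. In each list up to 4 genes are named by the size of their change, among those past the threshold, without overlap and above background on all arrays. Genes named beside these were chosen after their values were seen. Alternatives were other background corrections, scalings, filters and tests, blocks for slide row and replicate number, the mean of a gene's probes, and leaving out each mouse.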

Additional observations from a re-analysis of the deposited data

How the results depend on the processing

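Ctss, Ctse and Ctsc were higher in LPR mice under all 21 alternatives, and 0 results changed sign past the threshold. Ctsk lost its call in 8 and the brightest Ctsw probe in 9 of 21 alternatives, and Ctsz gained one in 3, all versions of the methods' t-test. The count of cathepsin genes higher, 5, was 3 without a filter on dim probes and 3 with the slide row as a block, where the change rests on LPR 1 alone against the MRL mice, and 3 to 4 when 1 mouse was left out (3 without MRL 3, LPR 1 or LPR 3). The count of cathepsin probes higher, 8, was 6 to 7 with 1 mouse left out. Over all probes, 2610 higher became 1469 with the slide row and 1732 with the adjusted t-test, and 1968 to 2378 with 1 mouse left out. The 2423 lower probes became 4486 with normexp (beside 2539 higher), 1086 without a filter, 456 with the slide row, 7104 and 7297 with the t-test on log2 and linear values, 1346 with its adjustment, and 749 to 2270 with 1 mouse left out, lowest without MRL 2. The cause was not tested. Cathepsin inhibitors higher, 3, were 5 with normexp and 5 with the t-test on log2 values. Targets of cathepsin C higher, 3, became 1 with a filter on all 6 arrays, which removes genes dim in MRL mice, and 1 was lower with normexp and with either t-test. Other lysosomal proteases lower, 0, became 1 with normexp, 1 with an intensity trend, 3 with either t-test, 1 with its adjustment and 0 to 1 with 1 mouse left out. Lysosome genes higher, 2, were 5 with normexp, 4 with the trend, 1 with the slide row, 6 with either t-test and 1 to 2 with 1 mouse left out. Those lower, 2, were 4 with normexp, 1 with a median shift, 0 without a filter, 4 with the trend, 0 with the slide row, 6 with either t-test and 0 to 1 with 1 mouse left out.

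The replicate numbers of the labels are not stated to pair the mice. Deviations from the group means correlated at 0.12, 0.02 and 0.01 for the same numbers, and not every mouse correlated best with its own number (MRL 2 did with LPR 3). With the replicate block, 3 cathepsin genes, 1 lysosome gene and 2208 probes were higher, and 0 cathepsin genes, 0 lysosome genes and 1107 probes were lower.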
